A study of Homo sapiens with 9 samples.

Results

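Regions of H3K27 acetylation that were continuous in vehicle-treated leukemia cells, and interrupted in cells given the SWI/SNF degrader ACBI-1, were described by what lies in the interruptions. A region was taken when a DMSO H3K27ac peak under 10000 bp wide overlapped 2 or more ACBI H3K27ac peaks, and such a region is called a split peak. There were 4348 of them, which is 4.86% of the 89525 DMSO peaks under 10000 bp and 12.1% of the 36035 that overlapped at least 1 ACBI peak (kept peaks). The stretches of ACBI peaks inside a split peak are called pieces, the stretches between neighbouring pieces gaps, and the uncovered stretches outside the outermost pieces ends. Members were chosen by the positions and widths of peaks in both H3K27ac lists, so the counts and lengths of pieces and gaps are a description without a test. The RUNX1, BRG1 and H3K4me3 lists took no part in the rule.

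All libraries came from DND-41, an established line of human T-cell acute lymphoblastic leukemia, profiled by CUT&RUN, in which an antibody directs a nuclease to its target so that the released DNA can be sequenced. H3K27ac was profiled in cells given ACBI-1 at 100 nM and in cells given DMSO, while the BRG1, RUNX1 and H3K4me3 libraries carry no treatment label. Each target and condition had 1 library, so differences are given without p-values and could not be set against a spread between cultures. How long the cells were treated is not stated in the labels. The 4 control libraries of the 9 in the series were not analysed here, and the one titled as input for RUNX1 carries an IgG antibody label. Depth is unknown because the lists hold positions alone. Peaks come from hg19 and are not annotated with genes.

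SWI/SNF complexes use ATP to slide or evict nucleosomes. BRG1 (SMARCA4) is one of their ATPases, and ACBI-1 is a small molecule that directs this ATPase, its paralog SMARCA2 and the subunit PBRM1 to the proteasome. RUNX1 is a sequence-specific factor of the hematopoietic lineages that binds promoters and enhancers in T-lineage leukemia. H3K4me3 lies on the nucleosomes beside active transcription starts, and H3K27ac on those beside active promoters and enhancers. Factors and remodelers sit on the accessible DNA between such nucleosomes.

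Most split peaks were broken once. There were 2 pieces in 3629 split peaks (83.5%), 3 in 604 (13.9%), 4 in 106 (2.44%) and 5 in 9 (0.207%). They held 9539 pieces and 5191 gaps. The gaps had a median length of 951 bp, with quartiles of 772 and 1308 bp, and ran from 658 to 6047 bp. The shortest distance between any neighbouring peaks was 658 bp in the whole ACBI list and 633 bp in the DMSO list, so shorter interruptions are not recorded in either list. Gap length hardly depended on the number of pieces, with a median of 967 bp in peaks of 3 or more pieces and 945 bp in peaks of 2.

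Of the total length of split peaks, gaps took 29.8%, pieces 52.6% and ends 17.6%. The pieces of one peak were unequal: the longest was a median of 2.96 times as long as the shortest. A piece had a median of 704 bp inside the DMSO peak, against a median full width of 892 bp for the ACBI peaks concerned. Of the 8696 outer edges of split peaks, 3281 (37.7%) had an ACBI peak running beyond the DMSO edge. Gap centres lay around the middle of the DMSO peak, at a median of 49.8% of its length with quartiles of 34.2% and 65.4%.

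Wide peaks were split more often. The median width was 4207 bp in split peaks and 1415 bp in the 31687 kept peaks that overlapped a single ACBI peak (unsplit peaks). Among kept peaks, 0.109% of those under 1000 bp, 12.9% of those of 2000 to 3000 bp and 78.3% of those of 9000 to 10000 bp were split. The narrowest members were 796, 813 and 913 bp wide. The widest were 9990, 9990 and 9988 bp, and the DMSO peaks just outside the width limit were 10002, 10003 and 10009 bp. A further 752 peaks of 10000 bp or more overlapped several ACBI peaks and are not members. Across chromosomes with over 100 kept peaks, the share split was highest on chromosome 22, at 17.3% (236 of 1368 kept peaks, exact binomial 95% interval 15.3 to 19.4), and lowest on X, at 7.27% (5.37 to 9.57).

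**Figure D1:**
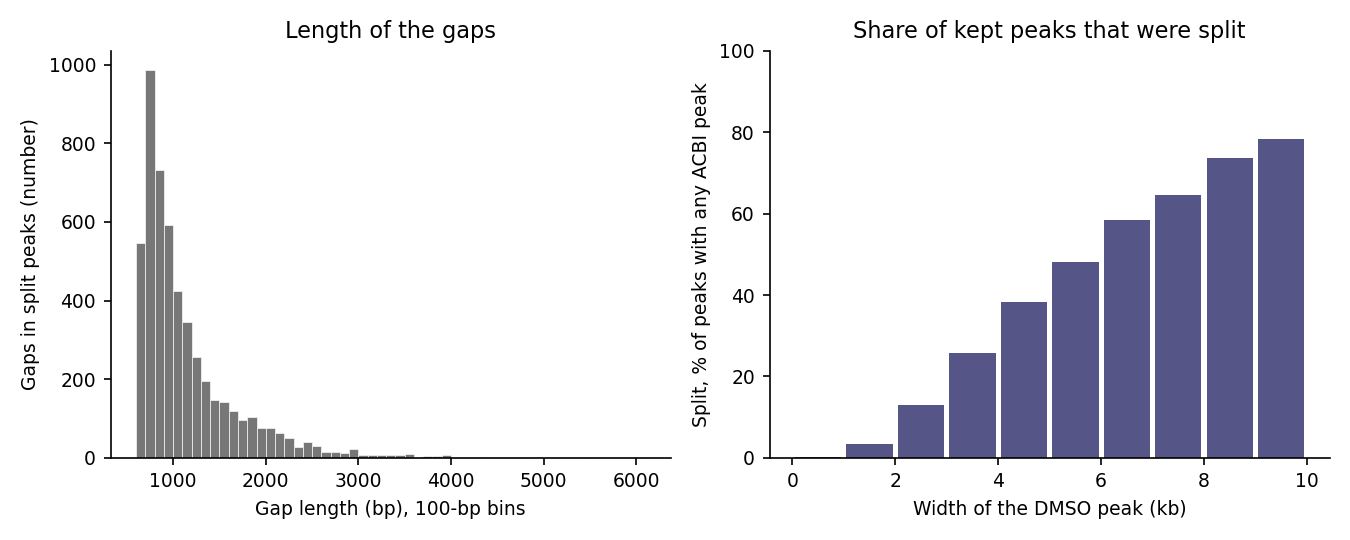
Left, number of gaps in split peaks by gap length in 100-bp bins. Right, percent of DMSO peaks with any ACBI peak that were split, by width of the DMSO peak. Gaps start at 658 bp and have a median of 951 bp, and the share split runs from 0.109% in the narrowest class to 78.3% in the widest. Wider peaks have more room for a gap.

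Splitting also occurred in the other direction, less often. Of the ACBI peaks under 10000 bp, 1825 of 52473 (3.48%) overlapped 2 or more DMSO peaks, or 4.44% of those that overlapped at least 1. Of these, 1668 (91.4%) met 2 DMSO peaks. Their 2001 gaps had a median length of 802 bp. The ACBI list holds fewer peaks than the DMSO list, and how far depth or background of the 2 libraries contributes to splits in either direction was not tested.

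Most split peaks held neither factor. A RUNX1 peak overlapped 1353 of them (31.1%, 29.7 to 32.5), a BRG1 peak 678 (15.6%, 14.5 to 16.7) and an H3K4me3 peak 886 (20.4%, 19.2 to 21.6). The same marks overlapped 13.8%, 6.58% and 11.5% of all DMSO peaks under 10000 bp, most of which are much narrower. Both factors were present in 604 split peaks (13.9%), of which 385 also had H3K4me3. RUNX1 without BRG1 was present in 749, BRG1 without RUNX1 in 74, and neither in 2921 (67.2%). The largest class was 2759 split peaks (63.5%) without either factor and without H3K4me3. Pieces covered a median of 46.2% of the peak in that class, and 53.9% where both factors and H3K4me3 were present. With both factors but no H3K4me3 the median was 59.3%. Median widths were 3751, 3927 and 5871 bp in the same order, and widths were not matched here.

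At equal widths, split peaks carried each mark less often than unsplit peaks. Unsplit does not mean intact. Over all widths, ACBI peaks covered a median of 60.9% of an unsplit peak and 49.9% of a split one. After weighting unsplit peaks to the widths of the split ones in 10 bins, RUNX1 was present on 31.1% of split peaks and 50.4% of unsplit peaks, a difference of -19.3 percentage points (95% interval -21.2 to -17.4, counting error only). Without this weighting the unsplit share was 26.3%, so the direction depends on matching widths. For BRG1 the shares were 15.6% of split and 25.7% of unsplit peaks, a difference of -10.1 points (-11.8 to -8.42), and the crude unsplit share of 13.5% lay below the split one here too. For H3K4me3 they were 20.4% and 31.5% in the same order, a difference of -11.1 points (-12.8 to -9.32). In each of the 10 width bins the share in split peaks was below that in unsplit peaks for all 3 marks.

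**Figure D2:**
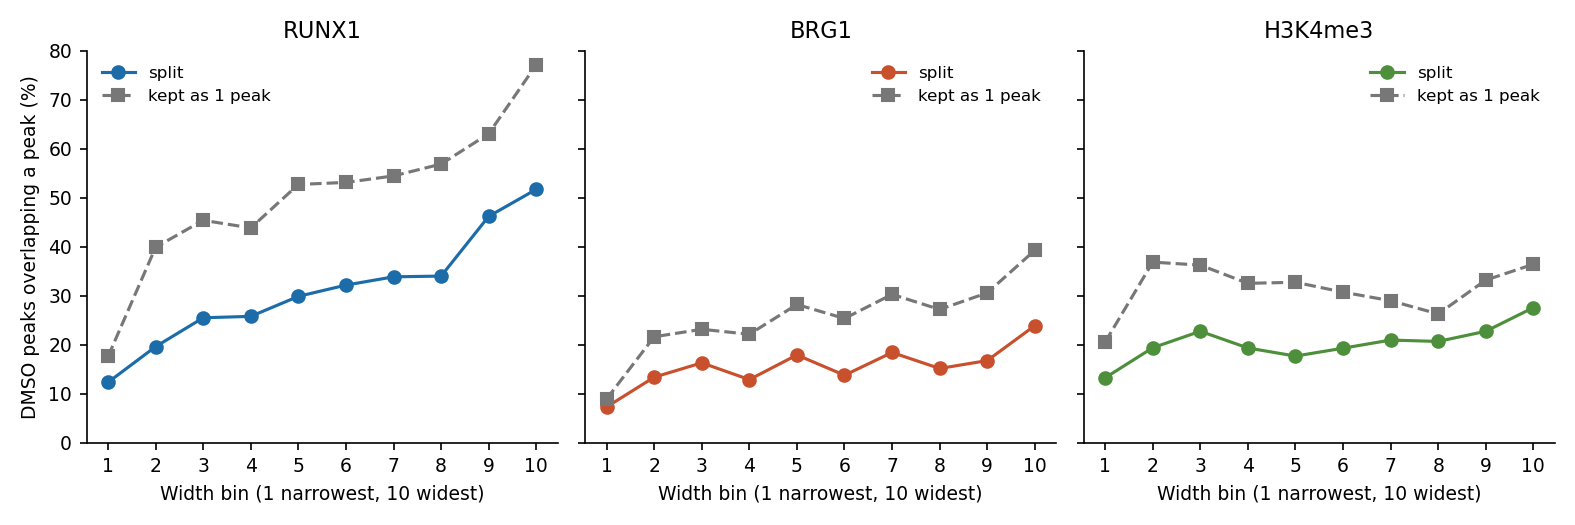
Percent of DMSO H3K27ac peaks that overlap a RUNX1, BRG1 or H3K4me3 peak, in split peaks (circles) and in peaks kept as 1 (squares), by width bin from the narrowest to the widest of 10. In the widest bin RUNX1 was on 51.7% of split and 77.1% of unsplit peaks.

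This deficit lay in peaks without H3K4me3. Without H3K4me3 and at equal widths, RUNX1 was on 19.5% of split and 37.9% of unsplit peaks (-18.5 points, -20.5 to -16.4), and BRG1 on 7.16% of split and 17.6% of unsplit peaks (-10.5 points, -12.1 to -8.80). Among peaks with H3K4me3, RUNX1 was on 76.6% of split and 77.5% of unsplit peaks, a difference of -0.869 points whose interval ran from -4.25 to 2.51. BRG1 was there more often on split peaks, 48.5% against 43.0% of unsplit ones, by 5.53 points (1.23 to 9.83). The differences between these strata were not tested.

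Where a factor was present, its position within the split peak was set against a random position in the same peak. A position drawn evenly along a peak falls in a gap with a chance equal to the share of that peak's length in gaps, so the expectation was computed exactly from lengths, averaged over the factor's midpoints. RUNX1 had 1898 peak midpoints in 1350 split peaks. Of these, 311 lay in gaps, 1472 in pieces and 115 in ends. The share in gaps was 16.4%, against 26.1% for random positions, a ratio of 0.629 (0.566 to 0.696). The share in pieces was 77.6%, against 56.1% for random positions, a ratio of 1.38. RUNX1 sites therefore lay in the acetylation that remained more often than their peaks' lengths give. This was not particular to split peaks. In unsplit peaks 83.9% of RUNX1 midpoints lay in the ACBI-covered stretch, against 66.1% for random positions, a ratio of 1.27. The ends of split peaks had a RUNX1 ratio of 0.340, below that of gaps.

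BRG1 had 773 midpoints in 673 split peaks, with 184 in gaps, 550 in pieces and 39 in ends. The share in gaps was 23.8%, against 27.1% for random positions, a ratio of 0.879 whose interval, 0.769 to 0.995, comes close to 1. Among split peaks under 5000 bp the ratio was 1.26 (1.11 to 1.41), so its direction depends on peak width. Over all split peaks the BRG1 ratio was 1.28 in pieces and 0.294 in ends. In the ACBI-covered stretch of unsplit peaks it was 1.25. Of 1150 H3K4me3 midpoints, 232 lay in gaps, 855 in pieces and 63 in ends. By bases, 20.2% of the H3K4me3 inside split peaks lay in gaps, against 26.4% for random positions, a ratio of 0.762 (0.678 to 0.855). This interval is rough, since it treats a share of bases as a count of peaks.

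Split peaks with and without H3K4me3, that is with and without an overlapping H3K4me3 peak, differed in where BRG1 lay. With H3K4me3, 170 of 495 BRG1 midpoints (34.3%, 30.2 to 38.7) were in gaps, against 28.5% for random positions, a ratio of 1.20 (1.06 to 1.36). Without H3K4me3, 14 of 278 (5.04%, 2.78 to 8.31) were in gaps, against 24.5% for random positions, a ratio of 0.205 (0.113 to 0.339). At these sites away from H3K4me3, 93.2% of BRG1 midpoints lay in pieces. In unsplit peaks without H3K4me3, 92.1% lay in the ACBI-covered stretch, against 61.0% for random positions. RUNX1 differed less between the strata. Its gap share was 22.9% (225 of 981) with H3K4me3, a ratio of 0.857 (0.760 to 0.960), and 9.38% (86 of 917) without it, a ratio of 0.371 (0.299 to 0.453). Neither difference was tested, and midpoints in the same peak are not independent.

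Narrow split peaks with H3K4me3 carried the excess of BRG1 in gaps. Among those under 5000 bp, 155 of 308 BRG1 midpoints lay in gaps (50.3%, 44.6 to 56.0), against 32.2% for random positions, a ratio of 1.56 (1.38 to 1.74). RUNX1 had 184 of 504 midpoints in gaps there, a ratio of 1.16 (1.02 to 1.29). With H3K4me3 but a width of 5000 bp or more, 15 of 187 BRG1 midpoints lay in gaps, a ratio of 0.357, and 41 of 477 RUNX1 midpoints, a ratio of 0.397. Without H3K4me3 the BRG1 ratio was 0.314 (10 of 105) under 5000 bp and 0.110 (4 of 173) at 5000 bp or more.

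Position along the peak moved with this result. Gaps lie between pieces by definition, and 49.1% of their length was in the central one of 3 equal lengths of the split peak. In narrow peaks with H3K4me3 that central length held 55.7% of the gap length and 45.5% of the BRG1 midpoints. Within that central length alone, 100 of 140 BRG1 midpoints (71.4%) were in gaps, against 61.1% for random positions there, a ratio of 1.17 (1.03 to 1.29). For RUNX1 the ratio there was 1.04 (0.921 to 1.16), with 122 of 204 midpoints in gaps. Over all widths with H3K4me3, the central BRG1 ratio was 1.12 (0.967 to 1.27). The low ratios without H3K4me3 were also low within the central length, at 0.240 for BRG1 (7 of 131) and 0.428 for RUNX1 (46 of 393).

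**Figure D3:**
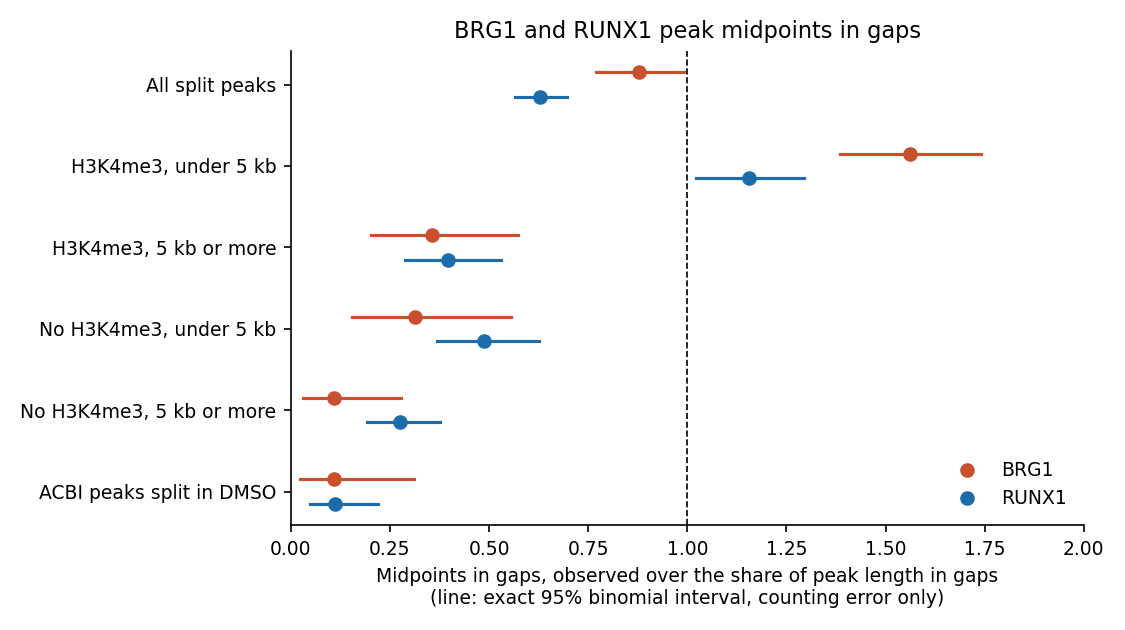
Share of BRG1 (red) and RUNX1 (blue) peak midpoints in gaps, divided by the share for random positions in the same peaks. Points are ratios, lines exact 95% binomial intervals for counting error, and the dashed line marks 1. BRG1 stands at 1.56 in split peaks under 5 kb with H3K4me3 and below 0.4 in the other 3 classes by width and H3K4me3.

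BRG1 peaks that overlapped a RUNX1 peak lay in gaps more often than those that did not. In split peaks with H3K4me3, of BRG1 midpoints whose peak overlapped RUNX1, 156 of 416 (37.5%, 32.8 to 42.3) were in gaps, a ratio of 1.30 (1.14 to 1.47). BRG1 midpoints there without RUNX1 had 14 of 79 in gaps, a ratio of 0.650 whose interval, 0.368 to 1.03, includes 1. These classes were not divided by peak width. RUNX1 midpoints with BRG1 had 143 of 405 in gaps (35.3%, ratio 1.21, 1.05 to 1.38), while those without BRG1 had 82 of 576, a ratio of 0.566. Without H3K4me3, RUNX1 midpoints were in gaps at a ratio of 0.241 with BRG1 and 0.414 without it.

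Gaps and pieces were then sorted by how much H3K4me3 covered them. H3K4me3 peaks covered 257 gaps fully (4.95%), 344 partly and 4590 (88.4%) not at all. A BRG1 midpoint lay in 103 of the 257 fully covered gaps (40.1%, 34.0 to 46.3), although their median length was 796 bp. A RUNX1 midpoint lay in 118 of them (45.9%) and both in 83 (32.3%). Of 607 pieces fully covered by H3K4me3, 14.5% held BRG1 and 25.9% held RUNX1. Per length, fully covered gaps held 460 BRG1 midpoints per Mb and fully covered pieces 192, while for RUNX1 the values were 536 in such gaps and 355 in such pieces. Where H3K4me3 covered them partly, gaps held 161 BRG1 midpoints per Mb and pieces 126, but RUNX1 was sparser in gaps, with 227 per Mb in gaps and 307 in pieces. Of these partly covered stretches, 18.9% of gaps and 25.8% of pieces held BRG1, and 25.3% of gaps and 53.6% of pieces held RUNX1. The partly covered pieces were longer, with a median of 1921 bp, while the gaps had one of 1020.5 bp.

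Away from H3K4me3, gaps held fewer sites of both factors than pieces. Of the 4590 gaps with no H3K4me3, 14 (0.305%) held BRG1 and 90 (1.96%) held RUNX1, against 3.02% and 8.65% of the 8281 pieces with no H3K4me3. Per length this was 2.62 BRG1 midpoints per Mb in such gaps and 31.1 in such pieces. In all, 4380 of 5191 gaps (84.4%) overlapped no peak of RUNX1, BRG1 or H3K4me3. Both factors had a midpoint in 149 gaps, and 138 of those overlapped H3K4me3. In 378 split peaks both factors had a midpoint in pieces and neither had one in a gap.

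The profile across gap edges showed the same contrast at finer scale. In split peaks with H3K4me3, BRG1 peaks covered 4.79% of bases in the last 100 bp of the gap and 6.37% at 300 to 400 bp inside it, against 2.55% at 200 to 300 bp into the piece. Coverage in the gap was highest, at 7.42%, at 500 to 600 bp inside it. Deeper still it was lower, at 2.69%, 1.32% and 0.823% in the next 3 bins and 0 at 900 to 1000 bp. Coverage by BRG1 was higher again, at 4.22%, at 900 to 1000 bp into the piece. RUNX1 coverage there differed less in proportion. It was 13.8% at 300 to 400 bp inside the gap and 10.7% at 200 to 300 bp into the piece. At 900 to 1000 bp into the piece it was 15.2%. H3K4me3 itself ran the other way, covering 24.6% at 500 to 600 bp inside the gap and 49.9% at 200 to 300 bp into the piece. Bins over 300 bp deep in a gap leave out the shorter gaps, and the deepest come from few and long ones. In split peaks without H3K4me3, BRG1 covered 0.225% of the last 100 bp of gaps and 0.994% at 900 to 1000 bp into the piece.

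**Figure D4:**
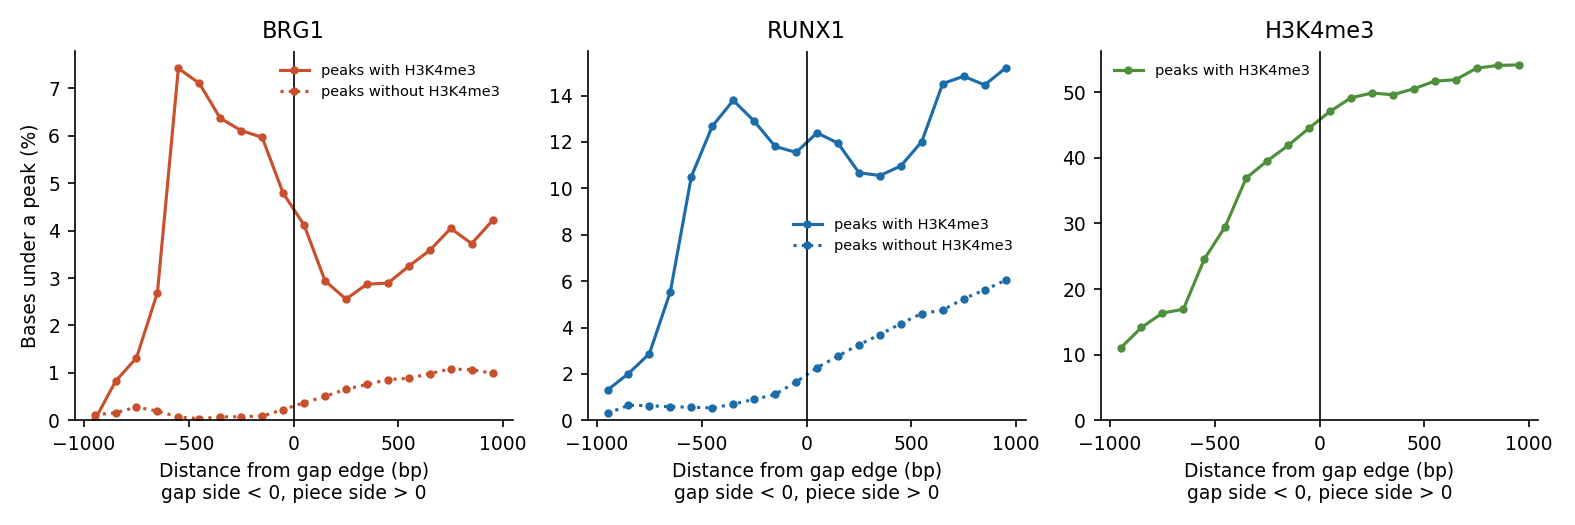
Percent of bases under a BRG1, RUNX1 or H3K4me3 peak by distance from the gap edge in 100-bp bins, in split peaks with (solid) and without (dotted) H3K4me3. Negative distances lie in the gap and positive ones in the piece. BRG1 coverage with H3K4me3 peaks at 7.42% at 500 to 600 bp inside the gap, is lower in deeper bins, which come from long gaps, and is 2.55% at 200 to 300 bp into the piece.

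BRG1 midpoints in gaps lay a median of 200 bp from the gap centre, in gaps whose centre-to-edge distance had a median of 450 bp. The BRG1 peaks in gaps were not narrower than those in pieces, with median widths of 338 bp in gaps and 290.5 bp in pieces. H3K4me3 peaks centred in gaps were wider than those centred in pieces, with medians of 2158.5 bp in gaps and 1571 bp in pieces.

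BRG1 placement also differed by gap length. The BRG1 ratio was 1.36 (1.09 to 1.67) in split peaks whose longest gap was under 800 bp and 1.15 (0.877 to 1.45) at 800 to 1000 bp. It was 0.872 (0.671 to 1.10) at 1000 to 1500 bp and 0.336 (0.200 to 0.518) at 1500 to 2500 bp. Above that it was 0.283 (0.0602 to 0.729), from 3 of 23 midpoints. For RUNX1 the ratios in the same order were 0.984, 0.685, 0.607, 0.359 and 0.460. Peak width and H3K4me3 were not held equal across these classes. By number of pieces, 7 of 90 BRG1 midpoints were in gaps in peaks of 3 or more pieces, a ratio of 0.243. In peaks of 2 pieces the ratio was 0.980.

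Where pieces held a factor, the widest piece held more of its midpoints than its length gives. The widest piece held 81.6% of the RUNX1 midpoints in pieces, against 74.2% by length, and 84.2% of the BRG1 midpoints, against 75.3%. Pieces with a RUNX1 midpoint had a median of 1993.5 bp, and pieces without one 620 bp. A longer piece has more room for a midpoint, and this difference was not set against an expectation by length. Where pieces held BRG1, it was in a single piece in 476 of 491 split peaks (96.9%). For RUNX1 this was so in 990 of 1106 (89.5%). The 491 peaks held 550 BRG1 midpoints in pieces, and the 1106 held 1472 RUNX1 midpoints. A peak with 1 midpoint can have it in 1 piece only, so these shares follow in large part from the counts.

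Counted by peak, RUNX1 lay only in pieces in 972 of the 1350 split peaks with a midpoint (72.0%) and only in gaps in 189 (14.0%). BRG1 lay only in pieces in 459 of 673 (68.2%) and only in gaps in 153 (22.7%). The same calculation for ACBI peaks split in DMSO gave few factor sites in gaps. BRG1 had 3 of 134 midpoints in those gaps (2.24%), against 20.5% for random positions, a ratio of 0.109. RUNX1 had 8 of 351 (2.28%), a ratio of 0.113. In the reverse set with H3K4me3, 2 of 80 BRG1 midpoints were in gaps, a ratio of 0.115. Among split DMSO peaks with H3K4me3 the BRG1 ratio was 1.20 over all widths and 0.357 at 5000 bp or more. By definition, gaps of the reverse set hold no DMSO H3K27ac peak, whereas gaps of split peaks lie inside one. The directions are therefore not like for like, and no conclusion is drawn from their difference. The factor libraries carry no treatment label, so factor positions under ACBI-1 were not analysed here.

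Individual regions show each arrangement. A gap inside promoter-type chromatin, in that H3K4me3 covered all of it, was found at chr15:41623996-41626785. This DMSO peak of 2790 bp was left with pieces of 331 and 174 bp near its edges, and the gap of 2183 bp between them held a RUNX1 peak of 572 bp and a BRG1 peak of 215 bp. At chr13:111364393-111368049 a gap of 1908 bp, covered by an H3K4me3 peak of 4921 bp, held a BRG1 peak of 400 bp and the midpoint of a RUNX1 peak of 1640 bp. A second RUNX1 and BRG1 pair lay in the uncovered end of that peak. At chr22:31738958-31743953 the gap of 2030 bp held a BRG1 peak of 258 bp near its right edge and no RUNX1. The other regions chosen for full H3K4me3 cover, chr22:23521345-23525940 and chr22:21270773-21276712, had gaps of 2301 and 1826 bp, and their factor peaks lay in pieces.

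The longest gaps that held both factors included regions without H3K4me3. The longest was 4527 bp, at chr22:50246479-50252502, where a BRG1 peak of 448 bp and a RUNX1 peak of 677 bp straddled the left edge of the gap and H3K4me3 covered 1724 bp of the DMSO peak. At chr2:204672770-204676944 the gap of 3345 bp held a RUNX1 and a BRG1 midpoint close to its left edge, and the right piece held a second pair. At chr14:72060035-72065318 the gap of 3334 bp held a RUNX1 peak of 432 bp with a BRG1 peak of 266 bp inside it. At chr15:72825557-72829490 a gap of 2148 bp held one pair and the right piece another. The last 3 of these had no H3K4me3.

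The 5 longest gaps carried none of the 3 marks, as did 86.4% of gaps of 2500 bp or more and 84.4% of all gaps. They measured 6047 bp at chr11:46563121-46572425, 5462 bp at chr1:116218976-116228518, 5135 bp at chr19:4012679-4020416, 5105 bp at chr21:47969491-47978260 and 4952 bp at chr22:50866855-50875110. No RUNX1, BRG1 or H3K4me3 peak overlapped any of these 5 DMSO peaks, which was so for 63.5% of all split peaks. Of the 9 regions with 5 pieces, the 5 with the greatest total gap length held no BRG1 peak. They were chr20:31020142-31028391, chr3:52389379-52398025, chr19:16674878-16684515, chr17:79166149-79175247 and chr1:28831954-28839663. RUNX1 and H3K4me3 peaks overlapped those on chromosomes 19 and 1, and in both the RUNX1 midpoint fell in a gap. Among all split peaks, 15.6% overlapped a BRG1 peak.

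The widest split peaks with both factors in pieces and neither in a gap kept their BRG1 peaks in the longest piece. At chr10:90142917-90152906, 9990 bp wide, a piece of 7599 bp kept a BRG1 peak and 3 of the 4 RUNX1 peaks, and the gap was 839 bp. At chr7:92435588-92445543 the single RUNX1 and BRG1 sites lay in a piece of 7164 bp, beside gaps of 949 and 662 bp. At chr17:66338992-66348908 a piece of 5068 bp held 3 RUNX1 peaks and a BRG1 peak. At chr2:10259905-10269811, which had an H3K4me3 peak of 4810 bp, a piece of 8947 bp held both BRG1 and both RUNX1 peaks. At chr6:13758778-13768767 the pair lay in a piece of 2654 bp beside a gap of 2167 bp.

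**Figure D5:**
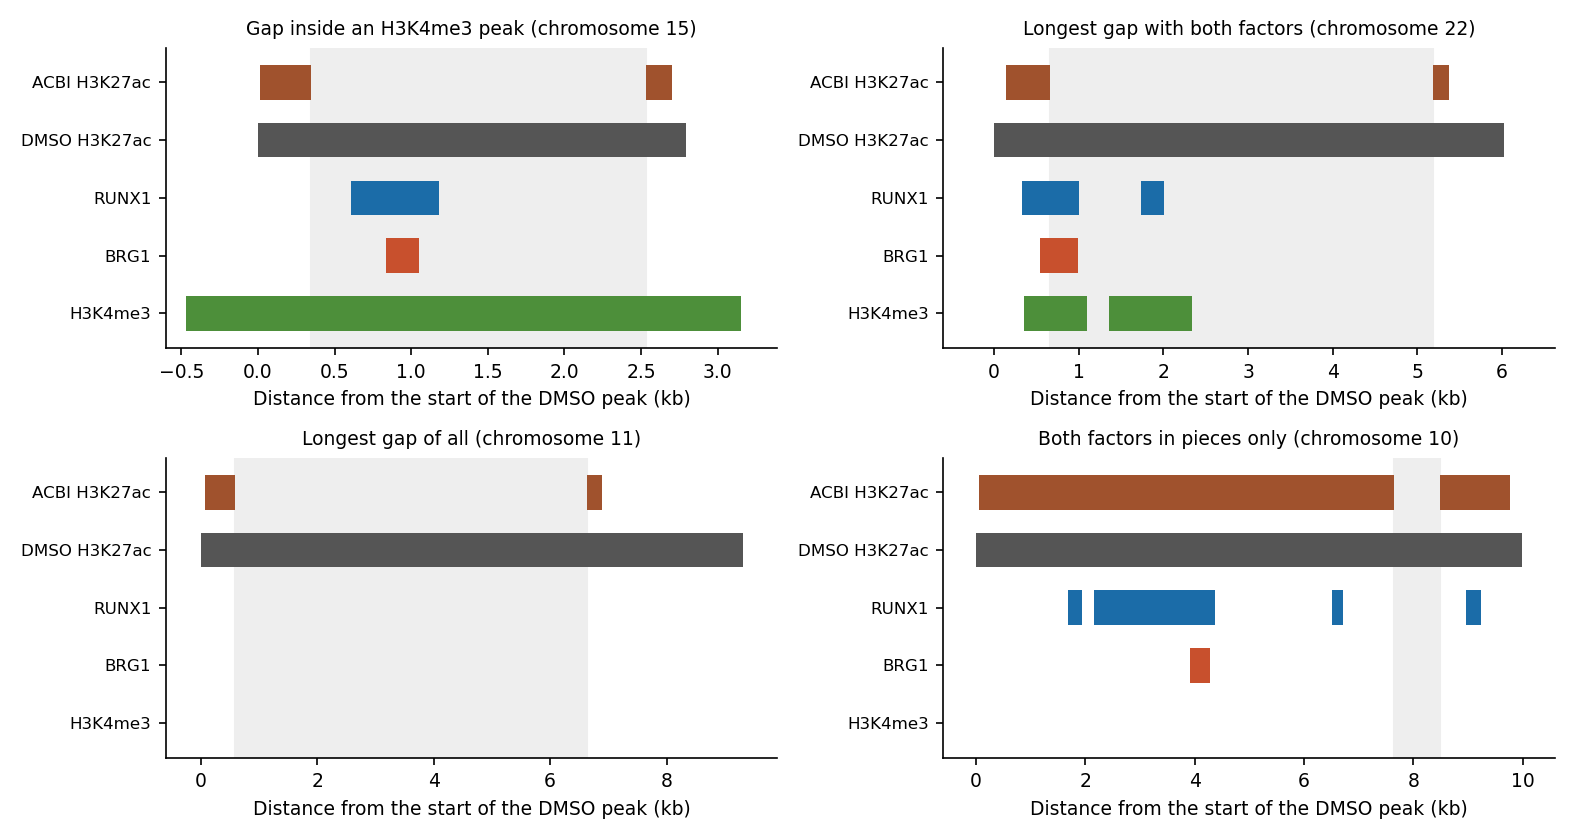
Peaks of 4 split regions, by distance from the start of the DMSO peak in kb, with ACBI H3K27ac above DMSO H3K27ac, RUNX1, BRG1 and H3K4me3, and gaps shaded. The chromosome 15 gap of 2183 bp holds RUNX1 and BRG1 under H3K4me3, the chromosome 11 gap of 6047 bp holds no peak, and the chromosome 10 region keeps both factors in a piece of 7599 bp.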

How the data were processed

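Libraries were assigned to groups from their titles, giving 5 peak lists of 1 CUT&RUN library each. The authors deposited chromosome, start, end and name of each peak, so every value used is a position and carries neither signal nor score. The submitters' processing notes name hg19, MACS2 and SEACR. Per the file headers both H3K27ac lists hold broad peaks at q below 0.01 and the RUNX1 list holds MACS2 peaks. The aligner, depths, use of controls, and the thresholds of the other lists are not stated there or in the labels. A shallower library or one with more background gives fewer, narrower and more broken peaks, and no interval here covers that. The ACBI list held 52967 peaks with a median width of 754 bp, and the DMSO list 90495 with one of 741 bp. Of 89525 DMSO peaks under 10000 bp, 53490 overlapped no ACBI peak. What part depth or background had in these values was not tested.

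Overlaps of at least 1 bp were computed with scipy 1.17.1, pandas 2.3.3 and numpy 2.4.6 under Python 3.11.15, tested on simulated intervals, and checked against bedtools 2.31.1, with 0 of 90495 peaks differing. Figures were drawn with matplotlib 3.10.9. The 95% intervals of shares of counted peaks or midpoints are exact binomial ones (Clopper-Pearson). They treat peaks as independent and cover nothing but counting error. For shares of bases or length, and with each split peak weighted equally, the share was treated as a count out of the number of peaks. Those intervals are therefore rough and not exact. The interval of a ratio divides that of the observed share by the expected share. Differences at equal widths carry normal intervals from binomial variances. No p-value was computed.

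The members, lists and settings were chosen with earlier results of these data known. The classes by width and H3K4me3 together, and those by position along the peak, were added after seeing the placement of BRG1. Regions were named by a rule: 5 each with most pieces, the longest gap, the longest gap holding both factor midpoints, the longest gap fully under H3K4me3, and the widest with both factors in pieces and neither in a gap. Sequences, motifs and genes were not analysed here, since positions are in hg19 and the gene table used here is for GRCh38.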

Additional observations from a re-analysis of the deposited data

How the results depend on the processing

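Of 81 alternatives to the counts, lengths, ratios and differences at equal widths, 56 stayed within the main value's counting interval or within 1.5 times a count, 24 moved outside it and 1 turned the direction. Of the 56, 14 could not have changed: no ACBI peaks lay under 200 bp apart to be merged, and a DMSO list cut to as many of its widest peaks as the ACBI list holds, a setting added after seeing the data, reached down to 601 bp and kept every split peak. With DMSO peaks under 5000 bp there were 2716 split peaks and 2884 gaps with a median of 899.5 bp, gaps took 34.6% of their length, and the gap ratio was 0.890 for RUNX1, 0.930 for H3K4me3 bases and 1.26 for BRG1, against 0.879 for BRG1 in the main set. With DMSO peaks of any width gaps took 24.98%, and the ratios were 0.507 for RUNX1 and 0.759 for BRG1. With ACBI peaks of at least 300 bp these were 28.1%, 0.547 and 0.766. Counting only the span from the first to the last piece gave 0.543 for RUNX1 and 0.757 for BRG1. Other settings added after seeing the data follow. Gaps of at least 1000 bp alone left 2135 split peaks and 2337 gaps with a median of 1376 bp, which took 32.9%, with ratios of 0.480 for RUNX1, 0.615 for BRG1 and 0.673 for H3K4me3. The central one of 3 equal lengths gave 0.722 for RUNX1 and 0.907 for BRG1 (0.770 to 1.05). Matching H3K4me3 as well as width gave differences of -14.9 points for RUNX1 and -7.18 points for BRG1. The cause of these shifts was not tested. The BRG1 ratio below 1 over all split peaks is the least settled value: besides the central length, its interval included 1 by bases, at 0.925 (0.814 to 1.04), with the widest 50% of BRG1 peaks, at 0.993 (0.839 to 1.16), with each split peak weighted equally, at 0.906 (0.790 to 1.03), and with ACBI peaks at least 100 bp inside, at 0.886 (0.774 to 1.004). The intervals by bases and with equal weighting are rough, since they treat these shares as counts of peaks. The planned comparison of sequence in gaps and pieces was not run.

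No paired analysis was possible because each group has 1 library, so the replicate number 2 shared by the ACBI and DMSO H3K27ac libraries leaves no degrees of freedom. Depth limits all of this: the lists give no counts, and whether a gap is a loss of signal or a stretch just under the caller's threshold cannot be told apart. Gaps under 658 bp cannot be seen in the ACBI list.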
